A study of Oryza sativa Japonica Group with 4 samples.

Results

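Of 57258 probe sets on the rice array, 53 had an intensity at least 2-fold higher with glutamine than without nitrogen in both biological repeats. The rule asked for a log2 difference of at least 1 between the plus glutamine and the minus N array of repeat 1, and again between those of repeat 2. Left out here were 8 probe sets of 6 named genes, NAC5, DREB1A, RR6, CIPK14, Chib3H-h and a gene named only as chitinase, and the other 45 are described. The members were thus chosen by their differences with glutamine, and these differences are a description and were not tested. The roots came from 17-day-old seedlings of Oryza sativa japonica cv. TNG67, and RNA was hybridised to GeneChip Rice Genome Arrays, which return 1 intensity for each probe set. Seeds of both groups germinated in darkness for 3 days, and the seedlings spent the next 2 weeks in a hydroponic medium lacking NH4NO3. For the last 30 min the minus N group (2 arrays) was kept in medium without nitrogen, and the plus glutamine group (2 arrays) was placed in 2.5 mM glutamine. The labels call the 2 samples of a group biological repeats without saying how many plants each pooled, so the spread between them is that of these samples.

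Glutamine is the first organic product when a root assimilates ammonium through glutamine synthetase, and it donates the nitrogen for most other amino acids and for nucleotides. Roots also take it up directly through amino acid transporters. Beside its role as a nutrient it is known as a signal of nitrogen status. Transcripts that differ within minutes of a nutrient supply are often those of regulators and of stress and defence responses, which are short-lived and quickly induced.

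None of the 45 probe sets carries a gene name or a function in the annotation used here, so what their products do cannot be said. The platform's annotation gives 1 gene number each to 33 of them, standing for 33 different genes, and no gene to the other 12. In a RefSeq gene table (assembly ASM3414082v1), all 33 were matched, 32 as protein-coding genes and 1, LOC4325299, as a miscellaneous RNA. Of these, 0 had a symbol or synonym other than a gene, locus or clone number. Genes are therefore called by their LOC number below, and the 12 without a gene by their probe set. The share with 1 gene was 73.3%, against 39.2% of all probe sets. Bright probe sets carry a gene more often, and among the 13205 at or above the members' median level the share was 79.4%. That set leaves out the levels of the dimmer members, so it is not matched to the 45 and the shares are not compared. By the array maker's suffixes, 39 of the 45 are of the standard type, 4 have probes shared by several transcripts (s_at) and 2 have probes that can match other sequences (x_at).

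Over the whole array the rule found 0.0926% of all probe sets in the higher direction and 0.00175%, a single probe set, in the lower one. The lower one, Os.50175.2.S1_at, stood at log2 7.22 and 7.63 without nitrogen and at 6.08 and 6.33 with glutamine. In limma's moderated test over all probe sets, with Benjamini-Hochberg adjustment, 0 passed (0% called), and 453 higher and 52 lower had an unadjusted p under 0.05. Every member had an adjusted p of 1 in that limma test. Fitted with a term for repeat number and a trended, robust variance prior, limma called 24 probe sets (0.0419%), all higher, of which 17 were members. Since the rule used the same contrast, nothing is read from that count. In bulk root RNA, a change in the number of cells of a type and a change in RNA per cell cannot be told apart.

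With glutamine the 45 members were higher by a median of 1.48 on the log2 scale (2.78-fold between group means), with a range from 1.12 to 3.05. The median over all probe sets was -0.01, and 90% of them lay between the 5th percentile of -0.30 and the 95th of 0.34. In 12 members the fold between group means was under 2.5, in 28 it lay from 2.5 to under 4, and in 5 it was 4 or more. All 4 arrays kept the groups apart in 44 members, and the exception was LOC4326529. The rule makes such a separation likely, and in the higher direction it was found in 8.36% of all probe sets. The left-out named genes covered a like range, from 1.15 to 2.33 with a median of 1.62 over their 8 probe sets.

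**Figure D1:**
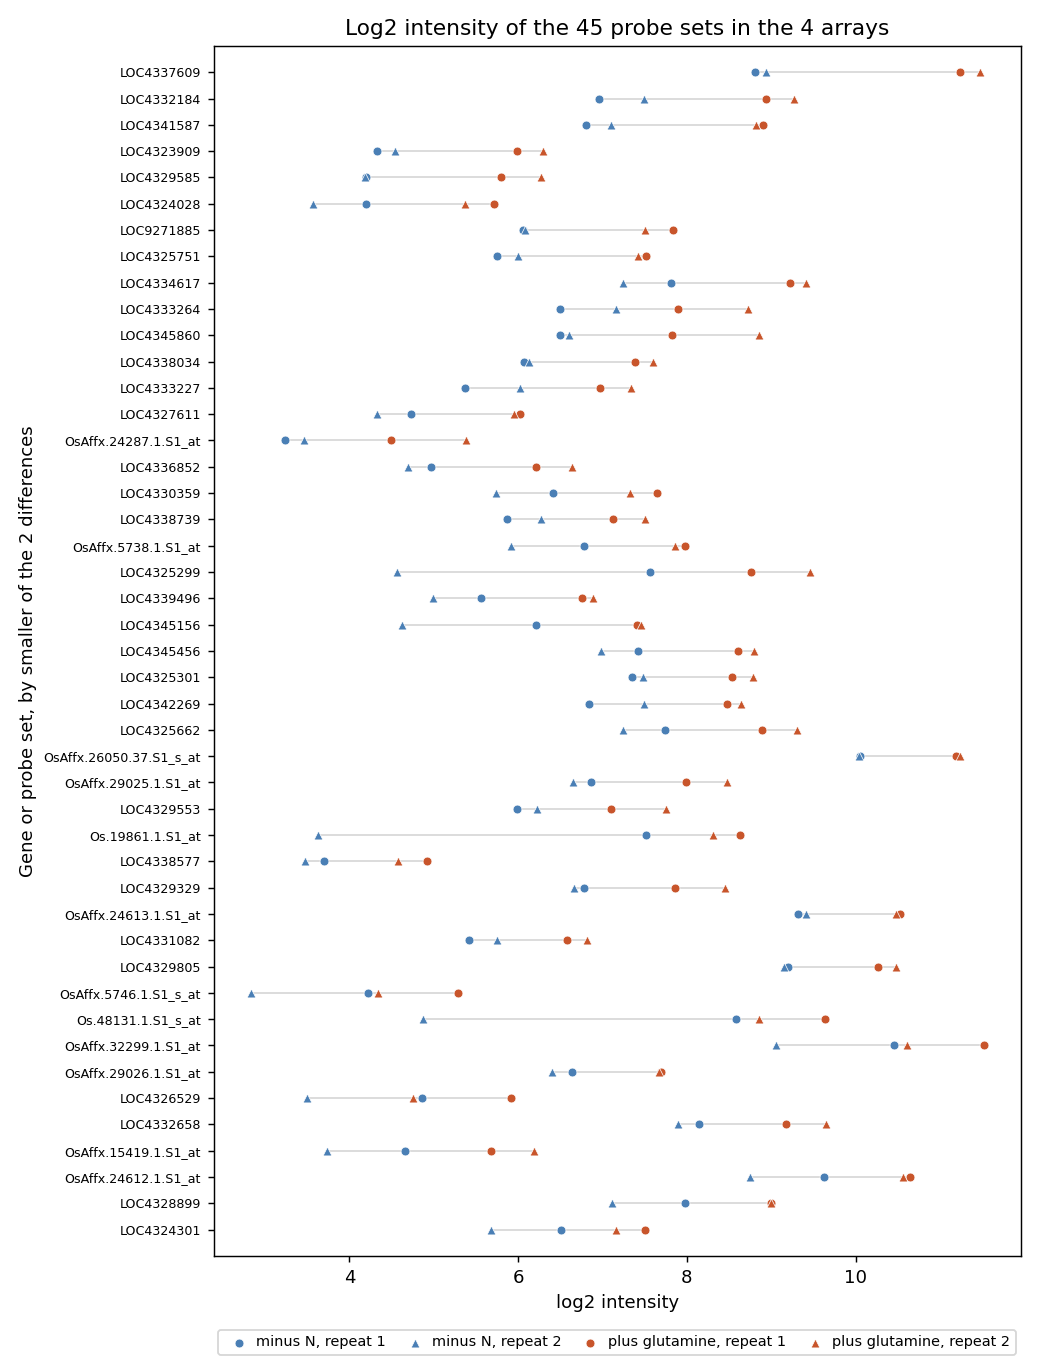
Log2 intensity of the 45 probe sets (rows) in each of the 4 arrays, in order of the smaller of the differences in repeat 1 and repeat 2. Blue marks are minus N and orange marks plus glutamine, circles repeat 1 and triangles repeat 2; the grey line spans the 4 values. LOC4337609 leads the order, and in LOC4326529 the plus glutamine triangle (4.75) lies to the left of the minus N circle (4.86).

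LOC4337609 led the 45 by the smaller of its 2 repeat differences. Its intensity was 447 and 489 without nitrogen and 2405 and 2846 with glutamine, for repeats 1 and 2 in that order here and in all values below. The 4 values form tight pairs far from each other, with log2 differences of 2.43 and 2.54 and a fold of 5.60 between group means (log2 difference 2.49, limma SE 0.22). It was the single member at least 4-fold higher in both repeats. Its probe set lay at the 95.9th percentile of mean intensity over all probe sets, a rank that also depends on how well its probes bind.

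LOC4332184 and LOC4341587 followed in this order. LOC4341587 stood at log2 6.81 and 7.10 without nitrogen and 8.91 and 8.82 with glutamine (3.77-fold between group means). LOC4332184, the second of the 45, stood at 6.96 and 7.50 and at 8.94 and 9.27 (3.67-fold). Both had nearly the same level and the same size of difference, and in both the fold was larger in repeat 1, at 4.29 and 3.93, than in repeat 2, at 3.31 and 3.43.

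The remaining members at least 3-fold higher in each repeat, LOC4329585 and LOC4323909, were dim. LOC4329585 had intensities of 18.3 and 18.2 without nitrogen and 55.5 and 76.9 with glutamine. For LOC4323909 the values were 20.1 and 23.3 against 63.4 and 78.6. Another dim gene, LOC4324028, stood at 18.4 and 11.9 against 52.5 and 41.4, at least 2.85-fold higher in each repeat. The minus N intensities of these genes lie near the median probe set of the arrays, which was between 19.7 and 22.2. No detection call shows how far above background any of their values are. Adding 16 to each intensity before taking log2 took 16 of the 45 under the 2-fold rule, LOC4324028 and the brighter LOC4332658 and LOC4328899 among them, while LOC4329585 and LOC4323909 still met it.

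A run of genes at middle levels was between 2.62-fold and 3.46-fold higher with glutamine. LOC9271885 had log2 values of 6.06 and 6.08 without nitrogen and 7.83 and 7.50 with glutamine, and LOC4325751 had intensities of 53.8 and 64.1 against 183 and 171. In both genes the minus N repeats lay close, 0.02 and 0.25 apart on the log2 scale, and the repeat 1 difference was the larger. LOC4338034 stood at 6.07 and 6.13 and at 7.39 and 7.60, so that its repeats were 0.06 and 0.21 apart in the 2 groups. LOC4333227 started lower, at 5.36 and 6.03, and reached 6.97 and 7.34. LOC4333264 moved in parallel between repeats, from 6.50 to 7.89 in repeat 1 and from 7.16 to 8.73 in repeat 2. In LOC4345860 the minus N values were nearly equal, 6.50 and 6.60, while the plus glutamine values were 7.83 and 8.85, the second of them over 1 unit above the first. LOC4334617 was brighter, at 7.81 and 7.24 without nitrogen and 9.22 and 9.41 with glutamine (3.44-fold between group means).

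Of the 15 members leading the order, the last were dim. LOC4327611 had log2 values of 4.73 and 4.32 against 6.02 and 5.95. OsAffx.24287.1.S1_at, the dimmest of all 45 by mean level, stood at 3.23 and 3.46 against 4.50 and 5.39, which are intensities from 9.4 to 41.8.

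The 5 brightest members, at or above the 95th percentile of mean level, were LOC4337609 and 4 probe sets to which the annotation gives no gene. OsAffx.26050.37.S1_s_at was the most even of them, with intensities of 1063 and 1057 without nitrogen and 2341 and 2412 with glutamine (2.24-fold). OsAffx.24613.1.S1_at had 640 and 679 against log2 values of 10.53 and 10.48 with glutamine (a log2 difference of 1.14 between group means). The repeats of both agreed within 0.09 on the log2 scale in each group. Both were chosen by differences of these same values, with 2 arrays per group, so nothing is read from this evenness. OsAffx.24612.1.S1_at was less even, at log2 9.63 and 8.74 against 10.64 and 10.56. OsAffx.32299.1.S1_at stood at 10.46 and 9.06 against 11.52 and 10.61, and its plus glutamine value of repeat 2 was only 0.15 above its minus N value of repeat 1.

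By minus N level, the 10 members whose minus N mean was under log2 5 had a median difference of 1.60, the 21 from 5 to under 7 one of 1.48, the 9 from 7 to under 9 one of 1.502 and the 5 at 9 or more one of 1.19. The 9 from 7 to under 9, LOC4337609 among them, ran from 1.25 to 2.49. The 5 at 9 or more, LOC4329805 and the 4 bright probe sets without a gene, ran from 1.14 to 1.42. Since the rule sets a lower limit of 1 for every member, the bands describe the members and not the array.

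**Figure D2:**
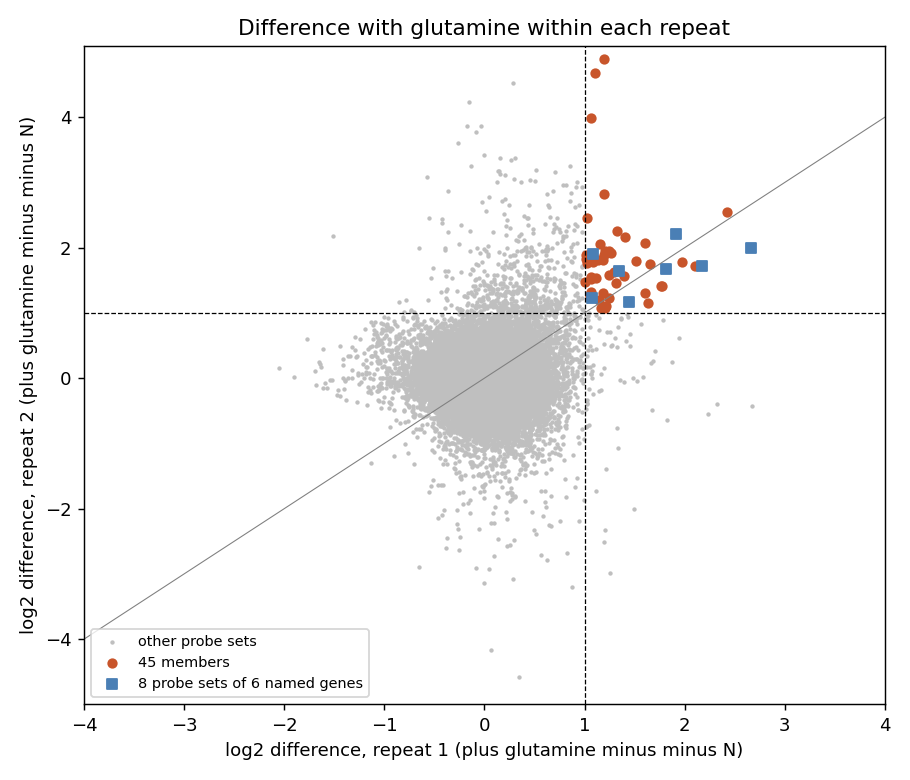
Log2 difference with glutamine in repeat 1 (horizontal) and repeat 2 (vertical) for all 57258 probe sets, with the 45 members in orange and the 8 probe sets of the 6 named genes in blue; dashed lines mark the rule's limit of 1 and the thin line equal differences. The members reach 2.43 in repeat 1 and 4.89 in repeat 2, and 35 of the 45 lie above the line of equal differences.

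Differences were larger in repeat 2 for most members. The median was 1.20 in repeat 1 and 1.75 in repeat 2, and 35 of 45 members had the larger difference in repeat 2, where 53.9% of all probe sets did. In 27 members the repeats' differences lay within 0.5 of each other, in 18 the repeat 2 difference was larger by 0.5 or more, and in 0 the repeat 1 difference was. The spread of differences was wider in repeat 2 over the array as a whole, with a 95th percentile of 0.52 against 0.40 in repeat 1. Asking for 2-fold in repeat 2 only gave 647 probe sets and in repeat 1 only 129, so that repeat 1 set the limit for most members.

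Among the 18 uneven members, 16 had a lower minus N value in repeat 2 than in repeat 1 and 14 had a higher plus glutamine value in repeat 2, with 12 showing both. A larger difference in repeat 2 requires at least 1 of the 2, so these counts describe the split and support nothing. Over all probe sets 36.2% were lower in minus N repeat 2 and 66.0% higher in plus glutamine repeat 2, and among the 5578 uneven in the same sense the shares were 73.6% and 77.7%. The median difference of the 18 uneven members was 1.17 in repeat 1 and 1.95 in repeat 2, while the 27 even members had 1.25 and 1.46. The gap between the minus N repeats, repeat 2 less repeat 1, had a median of -0.57 in the uneven members and 0.06 in the even ones, and 0.14 over all probe sets. The 3′ to 5′ intensity ratio of the Gapdh control probe sets, a measure of RNA integrity, also went with repeat number, at 6.94 (minus N) and 6.20 (plus glutamine) in repeat 1 and 4.32 and 4.43 in repeat 2. Its part in the uneven differences was not tested.

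Without nitrogen, 7 members were lower by over 1 log2 unit in repeat 2 than in repeat 1, which is 15.6% of the members against 2.14% of all probe sets. A low minus N value in repeat 2 makes the rule easier to meet, so this share is no finding about them. Singled out after their values were seen, 3 of the 7 were lower by over 2 units. LOC4325299, the miscellaneous RNA, had intensities of 188 and 23.7 without nitrogen and 432 and 705 with glutamine, a log2 difference of 1.20 in repeat 1 and 4.89, or 29.7-fold, in repeat 2. Os.19861.1.S1_at stood at log2 7.52 and 3.63 against 8.63 and 8.31, or 2.16-fold and 25.6-fold. In Os.48131.1.S1_s_at the values were 8.58 and 4.88 against 9.64 and 8.86, or 2.09-fold and 15.8-fold. The plus glutamine arrays of these 3 resembled each other far more than the minus N arrays did, and the largest mean differences of the 45 rest on minus N repeat 2. Leaving that array out brought the log2 difference from 3.05 to 1.55 for LOC4325299, from 2.89 to 0.95 for Os.19861.1.S1_at and from 2.52 to 0.67 for Os.48131.1.S1_s_at, and leaving out minus N repeat 1 gave 4.54, 4.84 and 4.37.

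LOC4345156 was milder, at 6.22 and 4.63 against 7.41 and 7.46, and its difference of 2.01 became 1.22 without minus N repeat 2. The other members with a low minus N repeat 2 had low values in both arrays of repeat 2. LOC4326529 stood at 4.86 and 3.50 against 5.91 and 4.75, and OsAffx.5746.1.S1_s_at at 4.22 and 2.83 against 5.29 and 4.34. With OsAffx.32299.1.S1_at, they had gaps between -1.40 and -1.36 in the minus N group and between -1.15 and -0.91 in the plus glutamine group, so that plus glutamine repeat 2 came close to minus N repeat 1 in each. Without minus N repeat 2 their differences were 0.47, 0.59 and 0.61, and without plus glutamine repeat 1 they were 0.58, 0.82 and 0.86, in the same order. Without minus N repeat 1 these 3 came to 1.83, 1.99 and 2.01, and without plus glutamine repeat 2 LOC4326529 came to 1.73.

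**Figure D3:**
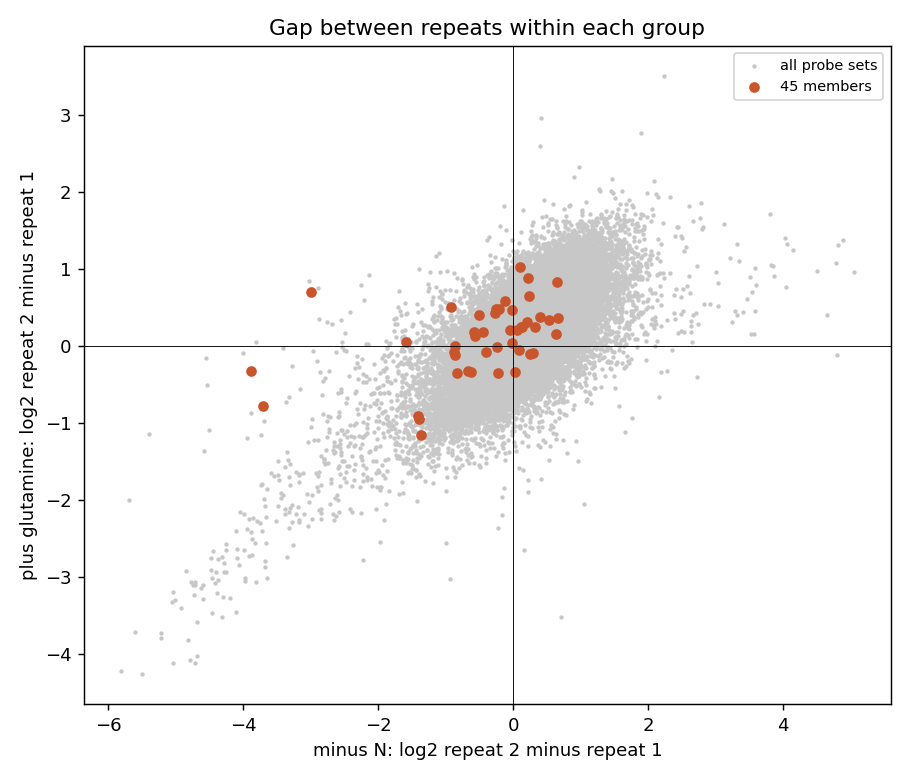
Gap between repeats (log2 of repeat 2 less repeat 1) in the minus N group (horizontal) and the plus glutamine group (vertical), for all probe sets in grey and the 45 members in orange. In 21 of the 45 members both gaps are under 0.5 in size, and 3 members stand at the left, between -3.89 and -2.99 in the minus N group with plus glutamine gaps between -0.78 and 0.70.

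The other 26 members, those outside the 15 leading and the 5 brightest, include these 6 and ranged from 2.17-fold to 8.26-fold between group means. LOC4325662, LOC4345456 and LOC4332658 were among the brighter of the rest. LOC4332658 stood at log2 8.15 and 7.89 against 9.17 and 9.65, LOC4325662 at 7.74 and 7.25 against 8.90 and 9.30, and LOC4345456 at 7.42 and 6.98 against 8.61 and 8.79. In all 3, both plus glutamine values lay over 1 unit above either minus N value. LOC4329805 was brighter still, with 9.20 and 9.16 against 10.27 and 10.48 (2.29-fold). LOC4342269 had the opposite lean, larger in repeat 1, at 6.85 and 7.49 against 8.48 and 8.64. The smallest mean difference, 1.12, belonged to LOC4331082, at 5.42 and 5.75 against 6.58 and 6.82. OsAffx.15419.1.S1_at leaned strongly to repeat 2, with 1.02 in repeat 1 and 2.45 in repeat 2, from 4.66 and 3.73 to 5.68 and 6.19.

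At middle levels, LOC4338739 and LOC4330359 were 2.36-fold and 2.66-fold higher between group means. LOC4338739 was the member whose repeats differed least in their response, at 1.25 and 1.23, from log2 5.87 and 6.28 to 7.12 and 7.50. LOC4330359 stood at 6.41 and 5.74 against 7.65 and 7.32. In LOC4329553 and LOC4329329 the minus N repeats lay close and the plus glutamine repeats apart. LOC4329553 had 5.99 and 6.22 against 7.10 and 7.76, and LOC4329329 had 6.78 and 6.67 against 7.86 and 8.45. Of the probe sets without a gene, OsAffx.29025.1.S1_at (6.86 and 6.66 against 7.99 and 8.47) and OsAffx.29026.1.S1_at (6.64 and 6.40 against 7.69 and 7.67) had like levels, and OsAffx.5738.1.S1_at had 6.78 and 5.91 against 7.98 and 7.86. LOC4328899 had intensities of 251 and 138 without nitrogen and 509 and 511 with glutamine, so that its plus glutamine repeats were nearly equal while its minus N repeats were not. LOC4338577 was dim in all arrays, with intensities of 13.0 and 11.1 without nitrogen.

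At the limit of the rule, the members just inside by the smaller difference were LOC4324301 (1.00 in repeat 1), LOC4328899 (1.02) and OsAffx.24612.1.S1_at (1.02). Just outside were LOC4331157 (1.00, with 1.94 in repeat 2), LOC4347354 (1.00 in repeat 2, with 1.04 in repeat 1) and OsAffx.23382.1.S1_at (0.99, with 1.05). Before rounding, the outer ones fell short by 0.0022, 0.0039 and 0.0117. The inner and outer ones are thus nearly equal on the measure that separates them. Leaving out minus N repeat 2 brought LOC4324301 from 1.24 to 0.83.

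For 3 member genes the array holds other probe sets, 4 in all, and 0 of these 4 were at least 1.5-fold higher in both repeats. LOC4323909, 1.66 and 1.75 higher by its dim member probe set, differed by -0.03 in repeat 1 and 0.63 in repeat 2 by Os.8545.1.S1_at, whose log2 values were 10.55 and 10.28 against 10.52 and 10.92. Its s_at version differed by 0.04 and 0.64. The other probe sets of LOC4323909 are thus far brighter than the member, and the difference of the member was not seen in them. For LOC4325662 the member's 1.15 and 2.05 stood against -0.03 and 0.35, and for LOC4336852 1.24 and 1.95 stood against 0.42 and -0.30, the latter at a level of 3.44. The sources used here do not say which transcript or part of the gene each probe set covers, and the probe sets of these 3 genes disagreed. The 30 other member genes have a single probe set each, and were thus measured once.

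**Figure D4:**
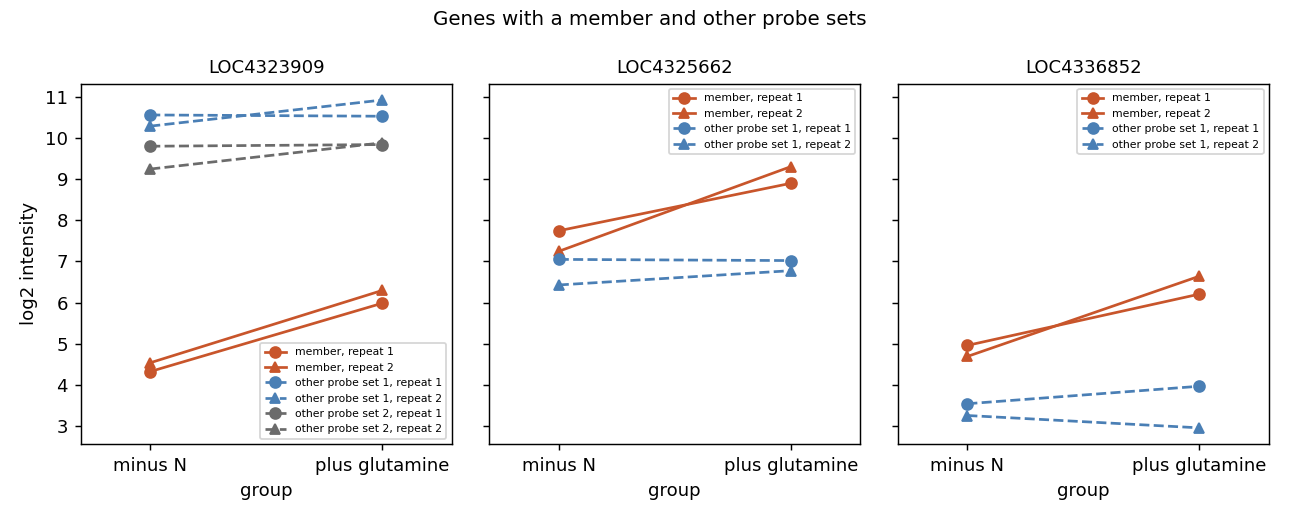
Log2 intensity without nitrogen and with glutamine for the 3 member genes with further probe sets, with the member probe set in orange and the others dashed; circles are repeat 1 and triangles repeat 2. The member differs by at least 1.15 in every panel and repeat, and the other probe sets by between -0.30 and 0.64.

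The gene order of the RefSeq table was used to ask whether members lie side by side. None of the 29 measured genes directly next to a member met the rule, and their median log2 difference was 0.03. Of all genes only 0.218% met it, so this count says little about placement. LOC4339497, next to member LOC4339496, was the single one at least 1.5-fold higher in both repeats, at 0.63 and 1.98. That was found in 0.613% of all probe sets. LOC4339496 itself had intensities of 47.2 and 31.9 against 108 and 118. Members LOC4325299 and LOC4325301 are separated in the table by 1 gene to which no probe set is annotated here. LOC4325301 was even between repeats, at 7.35 and 7.48 against 8.54 and 8.79, unlike LOC4325299. The genes that follow it, LOC4326918 and LOC4326919, differed by 0.45 and 0.39 and by 0.80 and 1.61. Being higher in both repeats by any amount, as LOC4326918 was, was found in 21.9% of all probe sets. LOC4326919 was at least 1.5-fold higher in both repeats, which was found in 0.613%. For the 2 members of this run the rule itself required a higher value in both repeats. On the other side of LOC4325299 the nearest measured gene, LOC4325297, differed by -0.01 and -0.24. This run was noticed in the data and was not tested.

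Named genes of regulator and response families were counted against the same rule. The members carry no gene name, so none of them could be counted in a family. The named genes that met the rule are those left out above. A count of 0 thus does not say that no member belongs to that family. Of 338 such genes, 4 met it (1.18%), against 6 of 2455 named genes (0.244%) and 39 of 17905 genes on the array (0.218%). The families were chosen with results of these data known, so the higher share is no independent finding. Of 17 families, listed by gene symbol and 1 probe set per gene for levels, 4 held a gene that met the rule, and each held 1. These were NAC5 among 9 NAC genes, DREB1A among 12 AP2/ERF and DREB genes, CIPK14 among 77 calcium sensors and calcium-regulated kinases, and RR6 among 19 cytokinin response regulators and oxidases. The 35 genes of jasmonate synthesis and JAZ repression, 55 type 2C phosphatases, 20 receptor-like and MAP kinases and 42 auxin genes held 0, and so did the 8 further families of 2 to 23 genes. The 6 WRKY genes also held 0, though their median difference was 1.19, and 4 of them were higher in both repeats and 0 lower. Of the 9 NAC genes 5 were higher in both repeats and 2 lower, with a median of 0.38. The jasmonate genes had 25 of 35 higher in both repeats by any amount and 4 lower, with a median of 0.27, against 24.9% and 25.7% of all genes and a median of -0.01. For the phosphatases the same counts were 16 and 10 of 55, with a median of -0.02. The median was 0.04 for AP2/ERF and DREB, 0.03 for the calcium list, 0.04 for cytokinin, 0.05 for auxin, -0.01 for receptor-like and MAP kinases, and between 0.00 and 0.12 for the others. None of these genes passed the limma test.

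The arrays resembled each other more by repeat number than by treatment, with correlations of log2 intensity across probe sets of 0.995 and 0.990 within numbers 1 and 2 and of 0.975 and 0.983 within the minus N and plus glutamine groups. Root markers (13 genes) had median log2 values of 6.96 and 7.75 without nitrogen and 7.73 and 8.10 with glutamine, so that their median level was higher with glutamine in both repeats, where all genes had medians of 7.16 and 7.46 against 7.24 and 7.44. Gene by gene, the median difference of the root markers was 0.34 in repeat 1 and -0.06 in repeat 2, and 3 of the 13 were higher in both repeats, 0 lower and 0 past the 2-fold rule. Seed storage markers (7 genes) had medians from 2.70 to 3.32 over the arrays, with 2 higher in both repeats and 0 lower, and green shoot markers (4 genes) had 0 in either direction. Green markers were thus present in root RNA, at 8.43 and 10.08 without nitrogen and at 9.35 and 9.67 with glutamine, and the part of these marker levels in the members' differences was not tested.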

How the data were processed

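The authors deposited 1 linear intensity per probe set and array. Per the submitters' processing notes, GCOS and RMA were used, with neither version nor role stated. The sources used here do not say how intensities were summarised or scaled. Values ran from 2.9 to 21202.3. Intensities were used as deposited, with log2 taken and no normalization added, and 123 control probe sets were left out. Gene numbers came from the platform annotation (22436 probe sets with 1 gene, 95 with several, 34727 with none) and were looked up in RefSeq.

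Members were taken by the fold rule and the named genes left out. Members and lists were chosen with earlier results of these data known. Described singly are the 15 members with the largest smaller difference, the 5 brightest, 3 on either side of the limit, and others chosen after their values were seen. Groups were compared over all probe sets with limma 3.58.1 (R 4.3.3; lmFit, eBayes, group as the single term, Benjamini-Hochberg, threshold 0.05), tested on simulated data, where 67 of 67 probe sets changed 2-fold at an SD of 0.1 were called among 57258. In the data, the log2 gap between minus N repeats ran from a 5th percentile of -0.67 to a 95th of 0.95. That is a wider spread than an SD of 0.1 gives, so that run does not show how many such changes limma could call here. A run with a larger SD was also simulated, and its calls are not reported here. Lists by symbol and tissue markers were only counted. With 2 arrays per group, their number limits the precision. Alternatives were the fold limit, normalization, floor, pseudocount, dim and cross-hybridising probe sets, 1 probe set per gene, pairing, the replicate number as a term, variance prior and each array left out. No promoter, protein or probe sequence was used here.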

Additional observations from a re-analysis of the deposited data

How the results depend on the processing

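The count of 53 probe sets became 351 at 1.5-fold and 9 at 3-fold in both repeats, 35 with a pseudocount of 16, which kept 29 of the 45 members, and 225 (0.393%) without pairing by repeat number, from which LOC4326529 was lost. Using a single repeat gave between 129 and 647. Median centring (55), quantile normalization (50, with 41 members kept), a floor at the 20th percentile (53, with 45 kept), leaving out the dimmer 50% (50) or probe sets prone to cross-hybridisation (46) and 1 probe set per gene (38) stayed within 1.5 times. The floor left every member's difference unchanged, so it was no check on them. Taking 1 probe set per gene also dropped the 12 members without a gene, and LOC4323909 was the only other member lost. The members' median difference of 1.48 ranged from 1.20 to 1.75 over single repeats and was 1.25 with the pseudocount. Limma called 0 probe sets with the replicate block (with an unadjusted p under 0.05 in 1711 higher and 769 lower) and 0 in the other settings tried, except that the replicate block with a trended and robust prior called 24 (0.0419%, all higher, 17 of them members, LOC4337609 among them). The repeats share only a number in the labels, though the gaps between repeats in the 2 groups correlated at 0.67 across probe sets. With 1 array left out, 10 of 45 members came under 1 in at least 1 fit, 7 of them without minus N replicate 2, and 8 members moved by over 1.5 times.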
